A study of Homo sapiens with 16 samples.

Results

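The genes described here are the regulators of the sterol regulatory element-binding proteins (SREBPs) and 1 ubiquitin ligase of lipoprotein uptake, 8 of the 58884 genes in the expression table: SREBF1, SREBF2, SCAP, INSIG1, INSIG2, MBTPS1, MBTPS2 and MYLIP. They were found by gene name. The set was chosen from this pathway with the results of the same 6 libraries known, after some of its genes had been seen to be lower under hnRNP L siRNA. Their levels and fold changes are therefore given as a description and carry no test.

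SETD2 is the methyltransferase that places trimethylation on lysine 36 of histone H3, and hnRNP L is a nuclear RNA-binding protein of pre-mRNA splicing. The study asked whether the pair act on common genes, and depleted each with a Dharmacon siRNA pool for 72 h in 293T, a human embryonic kidney cell line. RNA from wild type cells with scramble siRNA, from cells with SETD2 siRNA knock down and from cells with hnRNPL siRNA knock down was sequenced in 2 libraries each. All 6 libraries come from 1 cell line grown in DMEM with fetal bovine serum, which supplies lipoprotein cholesterol. The study describes its sequenced replicates as biologically independent.

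SREBPs are made as membrane precursors in the endoplasmic reticulum. When sterols are low, the escort protein SCAP carries the precursor to the Golgi, where the proteases S1P (from MBTPS1) and S2P (from MBTPS2) cut it in turn and free a transcription factor for the nucleus. When sterols are high, INSIG1 and INSIG2 hold SCAP and its cargo in the endoplasmic reticulum. SREBF2 is best known for driving cholesterol synthesis and lipoprotein uptake, and SREBF1 for fatty acid synthesis. INSIG1 and SREBF2 are themselves classical targets of nuclear SREBP. MYLIP, also called IDOL, is an E3 ubiquitin ligase that marks lipoprotein receptors for degradation and is a target of the sterol-sensing liver X receptors. An RNA level does not show how much precursor was cut.

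Both SREBP genes carry a microRNA of the miR-33 family in an intron on their own strand, and these microRNAs are known to act on cholesterol export genes. The mature sequences (RefSeq, GRCh38.p14) are shown because the host genes are the centre of the pathway. The capitals mark the seed, bases 2 to 8, which is UGCAUUG in both. The miR-33a strand lies at chr22:41900949-41900969 (+) within SREBF2, and the miR-33b strand lies at chr17:17813897-17813916 (−) within SREBF1.
hsa-miR-33a-5p: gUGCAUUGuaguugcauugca
hsa-miR-33b-5p: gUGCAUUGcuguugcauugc
MIR33A and MIR33B were listed at 0 TPM in all 6 libraries. The RNA was taken through ribosomal RNA depletion and poly(A) enrichment, so these values do not measure the mature microRNAs.

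Promoter sequence is shown for SREBF2 and INSIG1, the members with the lowest hnRNP L siRNA values relative to scramble. RefSeq promoters of 300 bases (250 before to 50 after the start) were searched on both strands for CACCCCAC (the core of a sterol regulatory element), CACGTG (an E-box), CCAAT and GGGCGG (a GC box), and matches are in capitals. Among the members' windows, CACCCCAC was found in that of SREBF2 alone, 132 bases before the start. It was found in 2.79% of 35116 promoters. For SREBF1, only the window near its outermost start was searched, and any other start of the gene was not. The SREBF2 stretch, at chr22:41832965-41833034 (+), also holds a reversed CCAAT, 106 bases before the start. The INSIG1 stretch, at chr7:155297703-155297775 (+), holds a reversed CCAAT and 2 GC boxes that share a base. It ends where the gene begins in GENCODE, since the RefSeq start of INSIG1 lies 102 bases inside the GENCODE gene. An E-box 55 bases before the RefSeq start therefore falls within the GENCODE gene.
SREBF2 promoter: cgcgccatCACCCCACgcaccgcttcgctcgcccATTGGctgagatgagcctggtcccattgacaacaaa
INSIG1 promoter: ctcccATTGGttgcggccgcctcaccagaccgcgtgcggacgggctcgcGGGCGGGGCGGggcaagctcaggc
CACGTG also stood in the RefSeq window of SCAP, and in 7.26% of all promoters. The SCAP window belongs to a RefSeq start 1185 bases inside the GENCODE gene, so all of it is gene body by the coordinates given here. For SREBF2, MBTPS1, MBTPS2 and MYLIP the starts were the same, and for SREBF1 and INSIG2 they differed by 16 to 98 bases. CCAAT stood in the promoters of SREBF2, INSIG1 and MYLIP, and in 34.61% of all promoters. The INSIG1 window held 6 GC boxes and that of SCAP held 4, whereas those of MBTPS1 and MBTPS2 held 0, with at least 1 GC box in 44.95% of all promoters. These are matches of letters and were not tested as binding sites.

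The values are TPM, a share of transcripts that the authors estimated per gene. TPM are scaled for gene length and library size, so levels may be compared between genes, but they keep no read counts, and the depth behind a value cannot be given. Each depleted gene was low in its own libraries. SETD2 was at 13.4 and 11.7 TPM under scramble siRNA and at 4.24 and 4.91 TPM after its own depletion, or 36.5% of its scramble level. HNRNPL was at 341 and 457 TPM under scramble siRNA and at 25.0 and 28.8 TPM under hnRNP L siRNA, or 6.7% of its scramble level. SCAP lies on the same arm of chromosome 3 as SETD2, with 249567 bases between them. The cell line's markers NEFL, NEFM and VIM were present at 64.6 to 941 TPM and PAX2 at 1.65 to 2.79 TPM. NEFM was at 437 and 454 TPM under hnRNP L siRNA and at 184 to 274 TPM in the other libraries. Of 3 hepatocyte and 3 leukocyte markers, all were at or below 0.4 TPM, and of 3 markers of kidney tubule, UMOD and AQP2 were at 0 and SLC12A1 was at most at 0.05 TPM. Of 3 fibroblast markers, COL1A1 was at 2.83 to 5.17 TPM, COL3A1 at 0.97 to 1.22 TPM and DCN at most at 0.09 TPM. Scramble replicate 1 stood apart in 1 respect, since mitochondrially encoded genes held 17.5% of its TPM against 6.7 to 10.9% in the other libraries. A larger mitochondrial share lowers the TPM of every other gene in that library.

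SREBF2 and INSIG1 had the largest differences among the members, both under hnRNP L siRNA, in which SREBF2 stood at 35.6% and INSIG1 at 52.1% of the scramble mean. Under hnRNP L siRNA, all 8 members had negative log2 fold changes. Under SETD2 siRNA, the differences were smaller and 7 members had negative log2 fold changes, INSIG1 having the lowest. Fold changes are on the log2(TPM + 0.5) scale, from limma fitted to the 16300 genes that averaged 0.5 TPM or more, with 1 mean per siRNA. All 8 members passed this filter. Calls required a Benjamini-Hochberg adjusted p below 0.05 together with more than a 1.5-fold difference.

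**Figure D1:**
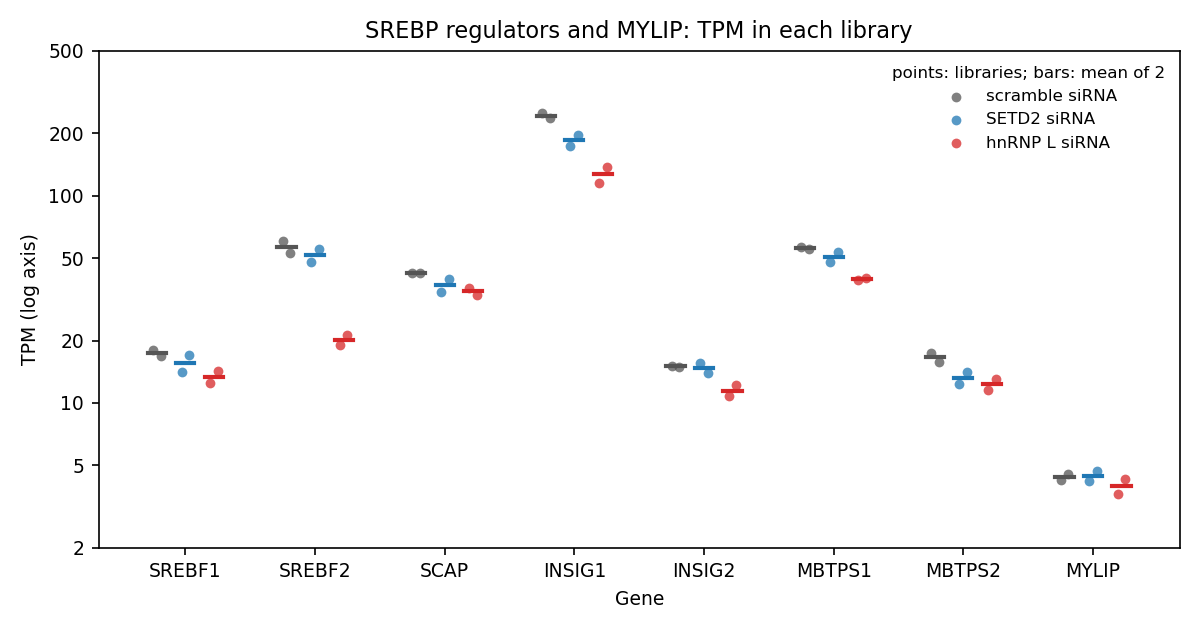
TPM on a log axis for the 8 genes, with 1 point per library and a bar at the mean of the 2 libraries of each siRNA. The SREBF2 points under hnRNP L siRNA, at 19.1 and 21.2 TPM, lie far below the other 4 libraries, which lie between 47.8 and 60.5 TPM, and the MYLIP points of the 3 siRNAs overlap.

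SREBF2, the precursor gene of the cholesterol branch, spans chr22:41833105-41907306 (+, hg38), 74.2 kb with 19 exons. It was at 60.5 and 52.6 TPM under scramble siRNA, at 47.8 and 55.4 TPM under SETD2 siRNA, and at 19.1 and 21.2 TPM under hnRNP L siRNA. Both hnRNP L siRNA libraries lay below all others, while scramble and SETD2 siRNA overlapped. The log2 fold change was -1.46 under hnRNP L siRNA and -0.13 under SETD2 siRNA against scramble, each with a standard error of 0.122, and -1.33 between the depletions. Without scramble replicate 1 the hnRNP L siRNA value was -1.36, and with TPM rescaled without mitochondrially encoded genes it was -1.51. An antisense gene, SREBF2-AS1, overlaps an SREBF2 exon on the opposite strand and was at 0.01 to 0.08 TPM.

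SREBF1, the precursor gene of the fatty acid branch, spans chr17:17810399-17837002 (−), 26.6 kb. It was at 18.02 and 16.83 TPM under scramble siRNA, at 14.13 and 17.01 TPM under SETD2 siRNA, and at 12.5 and 14.2 TPM under hnRNP L siRNA. The hnRNP L siRNA libraries lay below the scramble libraries but overlapped those of SETD2 siRNA. The log2 fold change was -0.37 under hnRNP L siRNA and -0.16 under SETD2 siRNA (standard error 0.13). RAI1 runs in from the opposite strand and shares exonic sequence with SREBF1, and RAI1 was at 10.0 to 14.4 TPM in the 6 libraries.

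The balance between the precursor transcripts differed accordingly. SREBF1 was at 0.298 and 0.32 of the SREBF2 TPM under scramble siRNA and at 0.296 and 0.307 under SETD2 siRNA, but at 0.654 and 0.67 under hnRNP L siRNA. A ratio taken within a library does not depend on how that library was scaled. The means were 0.309 ± 0.0154 for scramble, 0.301 ± 0.00787 for SETD2 and 0.662 ± 0.0116 for hnRNP L siRNA (SD, n = 2).

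SCAP, the sterol-sensing escort, spans chr3:47413681-47477126 (−), 63.4 kb. It was at 42.3 and 42.4 TPM under scramble siRNA, at 34.4 and 39.6 TPM under SETD2 siRNA, and at 35.9 and 33.3 TPM under hnRNP L siRNA. Both depletions lay below scramble and overlapped each other. The log2 fold changes were -0.20 under SETD2 siRNA and -0.29 under hnRNP L siRNA (standard error 0.108). SREBF2, the cargo, was at 1.43 and 1.24 of the SCAP TPM under scramble siRNA and at 0.531 and 0.637 under hnRNP L siRNA.

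INSIG1, a retention protein and the most abundant member, spans chr7:155297776-155310235 (+), 12.5 kb with 6 exons and no overlapping gene. It was at 251 and 236 TPM under scramble siRNA, at 174 and 197 TPM under SETD2 siRNA, and at 115 and 138 TPM under hnRNP L siRNA. The 3 siRNAs did not overlap, with scramble highest and hnRNP L siRNA lowest. The log2 fold change was -0.40 under SETD2 siRNA and -0.94 under hnRNP L siRNA, with a standard error of 0.118, and -0.55 between the depletions. Without scramble replicate 1 the hnRNP L siRNA value was -0.90.

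INSIG2, the second retention protein, spans chr2:118088452-118110997 (+), 22.5 kb. It was at 15.1 and 14.9 TPM under scramble siRNA, at 15.7 and 13.9 TPM under SETD2 siRNA, and at 10.8 and 12.2 TPM under hnRNP L siRNA. Scramble and SETD2 siRNA overlapped, and hnRNP L siRNA lay below both. The log2 fold changes were -0.02 and -0.38 against scramble (standard error 0.12). INSIG1 was at 16.6 and 15.8 times the INSIG2 TPM under scramble siRNA, at 11.1 and 14.1 times under SETD2 siRNA, and at 10.7 and 11.3 times under hnRNP L siRNA, so the last 2 groups overlapped. Per SCAP transcript, INSIG1 was at 5.93 and 5.56 under scramble siRNA, at 5.05 and 4.96 under SETD2 siRNA and at 3.22 and 4.14 under hnRNP L siRNA, with no overlap between groups.

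**Figure D2:**
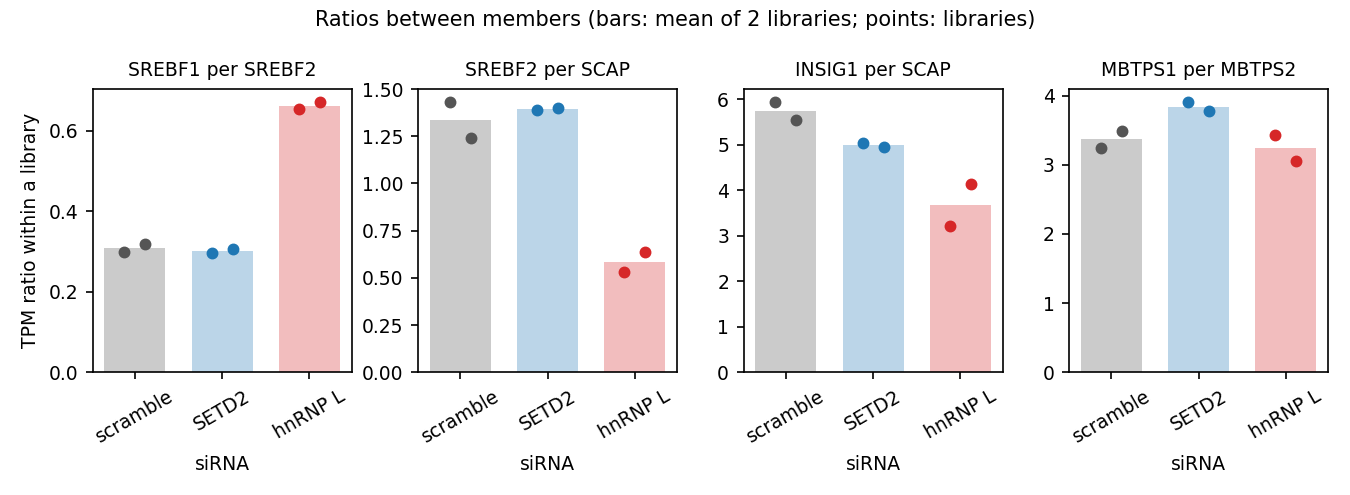
TPM ratios taken within each library for 4 pairs of genes, with points for libraries and bars for the mean of the 2 libraries of each siRNA, on axes that start at 0. SREBF1 per SREBF2 is higher and SREBF2 per SCAP is lower under hnRNP L siRNA than in the other 4 libraries, while MBTPS1 per MBTPS2 lies between 3.05 and 3.9 in all of them.

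MBTPS1, which encodes the first protease, spans chr16:84053761-84116942 (−), 63.2 kb. It was at 56.6 and 55.0 TPM under scramble siRNA, at 47.9 and 53.5 TPM under SETD2 siRNA, and at 39.3 and 39.9 TPM under hnRNP L siRNA. The 3 siRNAs did not overlap, in the same order as for INSIG1. Its log2 fold change was -0.49 under hnRNP L siRNA and -0.14 under SETD2 siRNA (standard error 0.1).

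MBTPS2, the gene of the second protease, spans chrX:21839617-21885423 (+), 45.8 kb. It was at 17.4 and 15.8 TPM under scramble siRNA, at 12.3 and 14.1 TPM under SETD2 siRNA, and at 11.5 and 13.1 TPM under hnRNP L siRNA. Both depletions lay below scramble and overlapped each other, as for SCAP. The log2 fold changes were -0.32 under SETD2 siRNA and -0.42 under hnRNP L siRNA (standard error 0.127). YY2, a gene without introns of its own, lies in an MBTPS2 intron on the same strand and was at 1.21 to 3.35 TPM. The ratio of MBTPS1 to MBTPS2 was 3.25 and 3.49 under scramble siRNA, 3.9 and 3.78 under SETD2 siRNA, and 3.42 and 3.05 under hnRNP L siRNA, in which hnRNP L siRNA overlapped scramble.

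MYLIP, the ubiquitin ligase, spans chr6:16129086-16148248 (+), 19.2 kb, and was the least abundant member. It was at 4.23 and 4.53 TPM under scramble siRNA, at 4.19 and 4.72 TPM under SETD2 siRNA, and at 3.65 and 4.3 TPM under hnRNP L siRNA. All 3 siRNAs overlapped. The log2 fold changes were 0.02 and -0.13 (standard error 0.148), and each was smaller than its standard error.

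**Figure D3:**
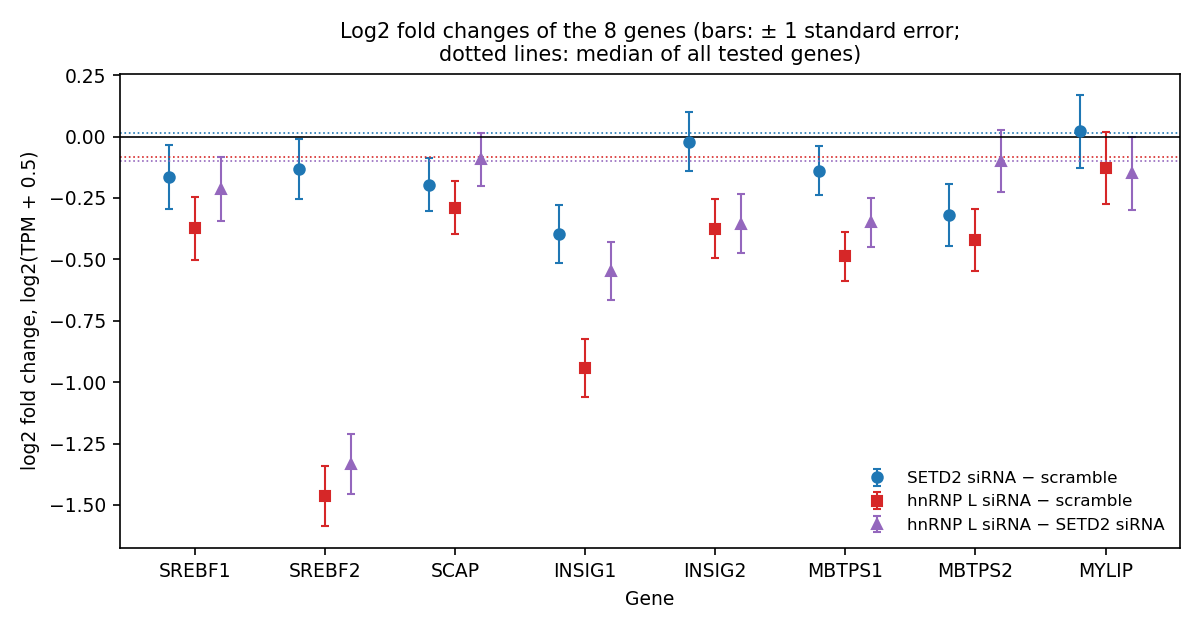
Log2 fold changes of the 8 genes on the log2(TPM + 0.5) scale in the 3 comparisons, with bars of 1 standard error and dotted lines at the median of all 16300 tested genes. SREBF2 lies at -1.46 and INSIG1 at -0.94 for hnRNP L siRNA against scramble, while MYLIP lies near the median of all genes in each comparison.

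The order of the levels showed the same shift. Under scramble siRNA, INSIG1 was highest, followed by SREBF2 and MBTPS1, which overlapped, then SCAP, then SREBF1 and MBTPS2, which overlapped, then INSIG2 and MYLIP. Under SETD2 siRNA the first 4 places were the same, and SREBF1, INSIG2 and MBTPS2 followed, each overlapping the next. Under hnRNP L siRNA, SREBF2 stood behind INSIG1, MBTPS1 and SCAP and overlapped none of its neighbours, and SREBF1, MBTPS2 and INSIG2 followed, again each overlapping the next.

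Set beside all tested genes, the members' median log2 fold change was -0.15 under SETD2 siRNA against 0.01 for all genes, -0.40 under hnRNP L siRNA against -0.08, and -0.28 between the depletions against -0.10. Of all tested genes, 47.3%, 61.1% and 64.1% had negative values in these comparisons. Under SETD2 siRNA 4 members, SCAP, INSIG1, MBTPS1 and MBTPS2, had both libraries below both scramble libraries, as did 20.6% of all tested genes. The same held for 7 members under hnRNP L siRNA, all but MYLIP, and for 37.8% of all tested genes. Both depletions were measured against the same scramble libraries, so their values are not independent.

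At the call used here, 0 members were called under SETD2 siRNA, where limma called 0.0552% of all tested genes higher and 0.0491% lower. At the same thresholds the study, with a different test, called more genes under SETD2 depletion. A count of 0 in this comparison therefore does not show that a gene was unchanged. Under hnRNP L siRNA, 2 members, SREBF2 and INSIG1, were called lower and 0 higher, among 5.01% of all tested genes called lower and 1.75% called higher. With median-ratio scaling of the libraries the numbers of genes called in all were 517 lower and 429 higher, against 816 and 286. Between the depletions, 1 member, SREBF2, was called lower under hnRNP L siRNA, among 4.69% called lower and 2.15% called higher. The members were chosen from these comparisons, and nothing is read from these counts. In bulk RNA, fewer cells that express a gene and less RNA of it per cell cannot be told apart.

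hnRNP L is known to bind CA-rich RNA, and runs of at least 4 CA repeats on the sense strand were counted over each gene in hg38. At least 1 run was found in all 8 members and in 69.6% of 12789 tested protein-coding genes. Per 10 kb, the members held 0.38 (SREBF1) to 0.8 (INSIG1) runs, against a median of 0.45 over the coding genes. The longest runs are shown for SREBF2 and MBTPS1, and the only run of INSIG1 for comparison, with the repeat in capitals and 10 bases on each side. The SREBF2 run of 30 nt lies in an intron at chr22:41844035-41844064 (+), the MBTPS1 run of 32 nt in an intron at chr16:84097839-84097870 (−), and the INSIG1 run of 8 nt in an untranslated exon at chr7:155309958-155309965 (+).
SREBF2 CA run: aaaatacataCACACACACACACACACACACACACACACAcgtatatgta
MBTPS1 CA run: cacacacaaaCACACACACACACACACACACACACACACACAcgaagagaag
INSIG1 CA run: cttgatcacgCACACACAataagtcttt
The longest runs of SCAP and SREBF1 were 16 and 14 nt, and those of the other members were 8 to 10 nt, with a median of 10 nt over coding genes. That median includes coding genes without a run, and genes were not matched for length. SREBF2 held 0.4 runs per 10 kb, and 46.4% of coding genes held fewer. Binding to these runs was not measured.

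For each member, the gene whose TPM followed it most closely over the 6 libraries was taken from the 10353 tested genes with a mean of at least 5 TPM. For SREBF2 it was NLGN2, a synaptic adhesion gene (Pearson's r = 0.9997), which was at 24.7 and 20.9 TPM under scramble and 5.98 and 6.83 under hnRNP L siRNA. For INSIG1 it was ANKFY1, an endosomal protein gene (r = 0.9988), for MBTPS1 it was WDR11 (r = 0.9991), and for SREBF1 it was TAOK1, a kinase gene (r = 0.9976). For SCAP it was SLC26A6, an anion exchanger gene (r = 0.992), for INSIG2 CDKN2AIP (r = 0.9972), for MBTPS2 DCBLD2 (r = 0.9986) and for MYLIP KLHL5 (r = 0.9966). An r of at least 0.95 was reached by 511 genes for SREBF2, 357 for INSIG1 and 30 for SCAP. Among the members themselves, r ranged from 0.424 (SCAP and MYLIP) to 0.973 (INSIG1 and MBTPS1), and SREBF2 had an r of 0.972 with MBTPS1 and 0.853 with SREBF1. The libraries share their scaling and their groups, and these correlations are descriptive. Each named gene has the highest r of 10353 over only 6 libraries, so the search itself favours a high value.

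The rest of the pathway was followed in 4 lists of 102 genes, without the members, of which 100 were tested. Like the members, the lists were chosen with earlier results of these data known. Their shares and p-values are therefore no separate test of the pathway. Under hnRNP L siRNA 25 of them, or 25.0%, were called lower, against 5.01% of all tested genes, and 0 were called higher, and their median log2 fold change was -0.27, against -0.08 for all tested genes. The count depended on single libraries. It was lower in each fit without 1 scramble or hnRNP L siRNA library, which left 1 library in that group. Fewer of all tested genes were called in those fits as well. In each of them 0 pathway genes were called higher. Under SETD2 siRNA limma called 0 of the 100 genes, 16 had an unadjusted p under 0.05 against 13.1% of all tested genes, and the median was -0.02 against 0.01. Between the depletions, 21 genes were called lower under hnRNP L siRNA, or 21.0% against 4.69% of all tested genes, and 0 were called higher. This count was also lower in each fit without 1 SETD2 or hnRNP L siRNA library. Fewer of all tested genes were called in those fits too.

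Most of the calls lay among the target enzymes of SREBP in sterol and fatty acid synthesis. Of these 32 genes, 18 were called lower under hnRNP L siRNA, or 56.2% against 5.01% of all tested genes, with a median of -0.63. The genes of fatty acid synthesis were mixed, and they are named here after their values were seen. FASN, ACACA and ME1 had log2 fold changes of 0.03, 0.10 and 0.02. ACLY, GPAM and FADS1 were not called, at -0.24, -0.05 and -0.57. SCD, ELOVL6, ACSS2 and FADS2 were called lower, at -0.59, -0.95, -0.63 and -0.76. MSMO1, a sterol oxidase of late cholesterol synthesis, was at 59.9 and 56.9 TPM under scramble, 42.7 and 45.5 under SETD2 and 19.1 and 17.4 under hnRNP L siRNA. Its log2 fold change under hnRNP L siRNA was -1.65 with a standard error of 0.102 (limma adjusted p = 0.000194). HMGCS1, which makes HMG-CoA, was at 60.6 and 54.8 TPM under scramble, 54.5 and 65.2 under SETD2 and 17.99 and 22.12 under hnRNP L siRNA (log2 fold change -1.51, limma adjusted p = 0.00114). IDI1, an isomerase of the isoprenoid steps, was at 75.4 and 75.2 TPM under scramble, 76.4 and 78.4 under SETD2 and 26.6 and 27.9 under hnRNP L siRNA (log2 fold change -1.45, limma adjusted p = 0.000225). MSMO1, HMGCS1 and IDI1 were each named in both hnRNP L siRNA comparisons, by a rule that required no overlap. That their hnRNP L siRNA libraries lay below the other 4 follows from this choice.

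Of 24 genes of SREBP retention, transport and turnover in the endoplasmic reticulum, 2 were called lower under hnRNP L siRNA, or 8.3%, a share near the 5.01% of all tested genes, and the median was -0.20 against -0.08. SAR1B, a GTPase of the COPII vesicles that carry SCAP and SREBP, was at 36.8 and 30.4 TPM under scramble and 18.8 and 18.2 under hnRNP L siRNA (log2 fold change -0.84, limma adjusted p = 0.00551). It was at 29.2 and 27.6 TPM under SETD2 siRNA, also below scramble. PAQR3, a Golgi protein that anchors the SCAP and SREBP complex, was at 21.97 and 22.28 TPM under scramble and 12.7 and 14.3 under hnRNP L siRNA (log2 fold change -0.69, limma adjusted p = 0.00898). PAQR3 was at 18.8 and 20.1 TPM under SETD2 siRNA, also below scramble. Between the depletions, SAR1B and RNF145, a ubiquitin ligase that acts on SCAP, were called. RNF145 was at 40.5 and 43.9 TPM under SETD2 siRNA and at 27.9 and 27.6 TPM under hnRNP L siRNA (log2 fold change -0.60, limma adjusted p = 0.0103).

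Of 15 nuclear partners and sterol-sensing receptors, 1 was called lower under hnRNP L siRNA, or 6.7%, also near the 5.01% of all tested genes, and the list median of -0.01 lay above the median of -0.08 for all genes. It was NR1H3, the liver X receptor alpha, at 5.13 and 6.85 TPM under scramble, 7.55 and 7.03 under SETD2 and 3.76 and 3.33 under hnRNP L siRNA (log2 fold change -0.67, limma adjusted p = 0.0328). MYLIP and SREBF1, which are known targets of this receptor, had log2 fold changes of -0.13 and -0.37 in the same comparison. Of 31 genes of LDL uptake and endosomal cholesterol handling, 29 were tested and 4 were called lower, or 13.8%, with a median of -0.15. Among them, AP2A2, a subunit of the clathrin adaptor, was at 49.01 and 53.03 TPM under scramble, 54.8 and 52.7 under SETD2 and 31.3 and 29.9 under hnRNP L siRNA (log2 fold change -0.73, limma adjusted p = 0.00484). LRP1, a receptor for lipoproteins and other ligands, was at 9.41 and 8.55 TPM under scramble and 4.88 and 5.63 under hnRNP L siRNA (log2 fold change -0.72, limma adjusted p = 0.0128). LRP1 was at 7.85 and 7.79 TPM under SETD2 siRNA, also below scramble. LIPA, the lysosomal lipase that frees cholesterol from lipoproteins and a gene named after its values were seen, was at 70.9 and 61.8 TPM under scramble and 41.2 and 43.7 under hnRNP L siRNA (log2 fold change -0.64, limma adjusted p = 0.0106). LIPA was at 49.8 and 53.6 TPM under SETD2 siRNA, also below scramble.

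**Figure D4:**
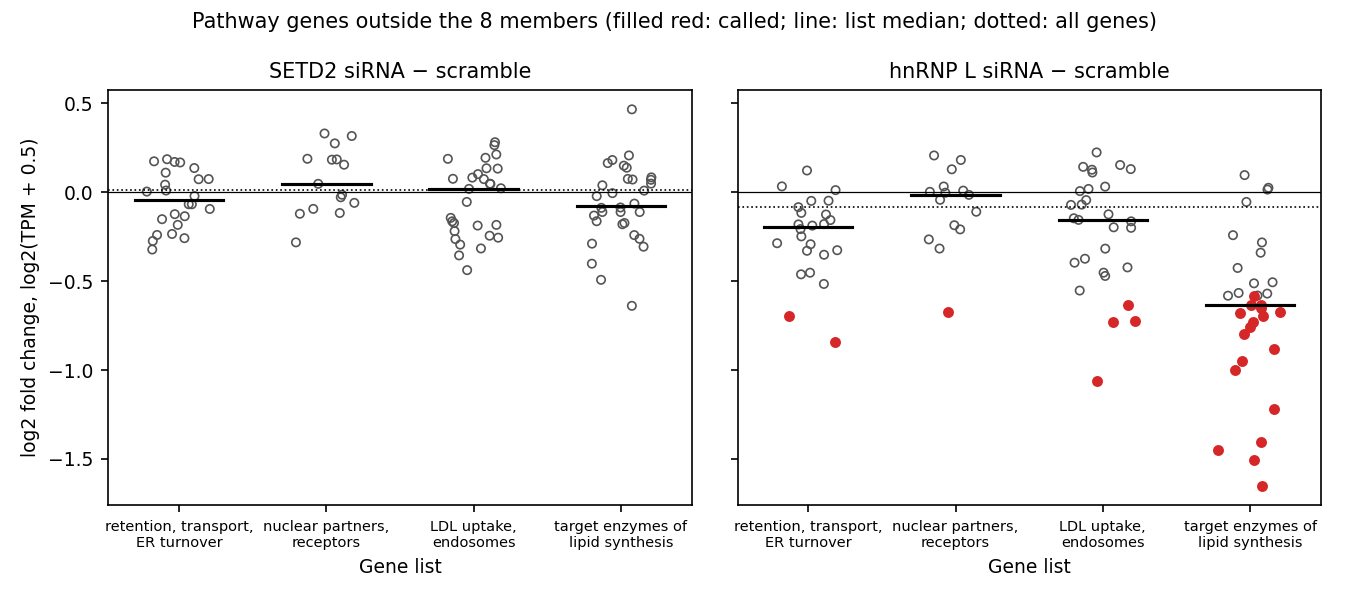
Log2 fold changes of the tested genes of the 4 lists, for SETD2 siRNA (left) and hnRNP L siRNA (right) against scramble, with filled points for called genes, a line at each list's median and a dotted line at the median of all tested genes. Under hnRNP L siRNA the target enzymes have a median of -0.63 and 18 filled points, and under SETD2 siRNA no point is filled.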

How the data were processed

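The 6 RNA-seq libraries of siRNA-treated 293T cells were grouped by their labels, 2 for each siRNA. The ChIP-seq libraries were not analysed here. Per the methods and the submitters' processing notes, the authors demultiplexed with bcl2fastq 2.18, ran STAR 2.6.1c on read pairs against hg38 with Ensembl 96 annotation, and made the deposited TPM per gene with RSEM 1.3.0. The TPM of each library sum to 1000000. They keep no depth, so no counting interval can be given.

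The fit was limma 3.58.1 in R 4.3.3 on log2(TPM + 0.5), which understates changes of low genes. Genes with a mean of at least 0.5 TPM were tested, all 6 libraries shared 1 fit with a variance trend, and p-values were adjusted by Benjamini-Hochberg over 16300 genes. The adjusted p and fold-change thresholds were those of the study, but the test was not. The study applied a different test, to protein-coding and lncRNA genes only, and reported more genes called under SETD2 depletion. Here 17 tested genes were called under SETD2 siRNA in all, and 60 with protein-coding and lncRNA genes only. Gene positions, exons and overlaps came from GENCODE release 44 on hg38, and promoters and microRNAs from RefSeq tables of GRCh38.p14, in which all 8 members matched. Python 3.11.15 and pandas 2.3.3 were used for tables.

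The members and lists were chosen with earlier results of these data known. The named genes are the 8 members, SETD2, HNRNPL, MIR33A, MIR33B, up to 3 called genes with the largest fold changes and no overlap per list, comparison and direction, and the gene most like each member. Overlapping genes, marker genes, LIPA, SC5D and the genes of fatty acid synthesis stand outside this rule and were named with their values known. The rule also takes in 1 gene that is left out of the text.

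Alternatives were other pseudocounts, filters, scalings and thresholds, fits without the third siRNA, without the variance trend or without 1 library in turn, and a block on the replicate number. A crossed block was added after seeing the data.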

Additional observations from a re-analysis of the deposited data

How the results depend on the processing

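The 100 tested pathway genes gave 0 calls for SETD2 siRNA, 25 for hnRNP L siRNA and 21 between the depletions. Counts that moved by over 1.5 times were 1 (SC5D, a sterol desaturase) for SETD2 siRNA with protein-coding and lncRNA genes only. For hnRNP L siRNA they were 13 with no filter on TPM and 6 at a fold change above 2, and for the depletions against each other 10 and 5. Leaving out 1 library gave 7 to 22 for hnRNP L siRNA and 6 to 21 between the depletions. The cause was not tested, except that a higher fold threshold removes calls by construction. In these alternatives 0 pathway genes were called higher. Of all tested genes, hnRNP L siRNA gave 286 higher and 816 lower calls, but 429 and 517 with median-ratio scaling and 424 and 482 with quantile normalization. Between the depletions, 350 and 765 became 453 and 472, or 442 and 458. With these scalings 17 and 18 pathway genes were lower under hnRNP L siRNA, and 16 in each between the depletions.

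Scramble and hnRNP L siRNA share the replicate numbers 1 and 2, but r of the paired deviations was -0.126 and the samples share only a number. The replicate block gave 21 pathway genes lower and 715 calls in all against 1102, and the crossed block, chosen after seeing the data, gave 25 and 1406. SETD2 siRNA shares only the number 2 with each other group, and no paired fit was made for it.

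The log2 fold change of SREBF2 under hnRNP L siRNA ranged from -1.56 to -1.36 over 20 alternatives, and that of INSIG1 from -1.07 to -0.81. Signs changed for INSIG2 and MYLIP under SETD2 siRNA and for SCAP and MBTPS2 between the depletions, where the reported values were -0.02, 0.02, -0.09 and -0.10.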
